A study of Mus musculus with 8 samples.

Results

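T, B and NK lymphocytes were followed in RNA from mouse airway cells through 38 genes that mark these cells or carry out their work. The genes were chosen by symbol, as a list of T cell, B cell, NK cell and lineage factor genes, and each of the 38 matched 1 of the 55401 rows of the count table. All 38 passed the filter on low counts that left 16964 genes for testing. They comprise 18 T cell genes, 10 B and plasma cell genes, 7 NK and cytotoxic genes and 3 transcription factors of T and NK lineages.

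The data are bulk RNA sequencing of 8 libraries labelled as airway cells, taken on day 10 after tamoxifen. The 4 mutant libraries came from animals with the genotype Scgb1a1cre; Cdh1F/F, and the 4 control libraries from Scgb1a1cre; Cdh1F/+ animals, so that both groups carried the Cre recombinase, received tamoxifen and had at least 1 floxed allele of Cdh1, the gene of the adhesion protein E-cadherin. Scgb1a1 encodes the main secreted protein of club cells, and its promoter drives the Cre in these secretory cells of the airway. The study asked which genes change in airway cells when Cdh1 is inactivated in club cells. According to its design text, immune and endothelial cells were depleted, EPCAM-positive cells were kept and GFP-positive and GFP-negative cells were sorted apart, but the labels do not say which fraction each library holds. The labels do not tie libraries to separate animals, and the p-values therefore take only the spread among these libraries into account.

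T cells recognise peptides through a receptor whose signal passes by way of the CD3 and CD247 chains to the kinases LCK and ZAP70 and the adaptor LAT. B cells signal through surface immunoglobulin paired with CD79A and CD79B, and plasma cells secrete immunoglobulin, in mucosa largely as IgA polymers held together by the J chain. NK cells and cytotoxic T cells kill by releasing perforin and granzymes. Lymphocytes lie within and beneath the airway epithelium and in the blood of the lung, and in a bulk library fewer cells of a type and less RNA per cell cannot be told apart.

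Promoter sequences are given for 5 members. They are 2 T cell receptor genes and 2 granule genes, whose levels followed 1 order across the control libraries, and a B cell gene that followed another. RefSeq (GRCm38.p6) held a promoter for 23 of the 38 members, in 27 windows of 300 bases that run from 250 bases before the transcription start through 50 bases after it. Cd3d (chr9:44981536-44981835, plus strand) and Cd3g (chr9:44980382-44980681, minus strand) face away from each other with starts 1355 bases apart. Gzmb (chr14:56262285-56262584, minus strand) and Prf1 (chr10:61297586-61297885, plus strand) encode the killing proteins of cytotoxic granules, and Cd79a (chr7:24897247-24897546, plus strand) encodes a chain of the B cell receptor. Each is printed from 5′ to 3′ on the strand of its gene. Capitals mark matches, on either strand, to the core of RUNX sites (TGTGGT), to a T-box half-site (GTGTGA), to a flanked ETS core (GGAAGT) and to the octamer (ATGCAAAT), and no 2 matches in these windows share a base.
Cd3d: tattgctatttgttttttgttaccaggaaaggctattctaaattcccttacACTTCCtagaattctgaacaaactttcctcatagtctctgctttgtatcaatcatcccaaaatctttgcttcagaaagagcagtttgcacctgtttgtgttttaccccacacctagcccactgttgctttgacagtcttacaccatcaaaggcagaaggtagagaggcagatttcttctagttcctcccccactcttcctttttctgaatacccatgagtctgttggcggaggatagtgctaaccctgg
Cd3g: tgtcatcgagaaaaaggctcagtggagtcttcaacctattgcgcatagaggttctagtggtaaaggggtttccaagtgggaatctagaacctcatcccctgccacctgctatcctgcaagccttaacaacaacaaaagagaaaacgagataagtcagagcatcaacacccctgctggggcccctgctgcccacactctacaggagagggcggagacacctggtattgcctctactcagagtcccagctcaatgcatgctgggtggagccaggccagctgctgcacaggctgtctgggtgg
Gzmb: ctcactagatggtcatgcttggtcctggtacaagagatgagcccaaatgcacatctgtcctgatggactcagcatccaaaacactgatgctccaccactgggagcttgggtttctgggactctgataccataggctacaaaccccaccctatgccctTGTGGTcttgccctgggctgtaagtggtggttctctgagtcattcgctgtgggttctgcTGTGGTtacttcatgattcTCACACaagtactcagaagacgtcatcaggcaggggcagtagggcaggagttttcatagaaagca
Prf1: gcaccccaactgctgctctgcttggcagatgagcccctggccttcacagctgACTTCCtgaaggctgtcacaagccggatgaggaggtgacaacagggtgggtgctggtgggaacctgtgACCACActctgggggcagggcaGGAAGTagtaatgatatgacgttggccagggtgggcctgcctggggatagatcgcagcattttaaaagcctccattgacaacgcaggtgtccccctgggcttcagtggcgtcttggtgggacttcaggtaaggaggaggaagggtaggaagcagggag
Cd79a: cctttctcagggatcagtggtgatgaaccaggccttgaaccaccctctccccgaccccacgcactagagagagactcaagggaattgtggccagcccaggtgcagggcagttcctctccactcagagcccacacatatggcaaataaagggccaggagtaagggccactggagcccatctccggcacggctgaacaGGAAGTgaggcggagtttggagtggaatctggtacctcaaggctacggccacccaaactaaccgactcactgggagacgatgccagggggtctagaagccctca

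The RUNX core, named for the RUNX factors of haematopoietic cells, lay in 11 of the 27 windows (40.7%), against 16.8% of 32851 mouse promoters of the same length. It was in all 6 windows of NK and cytotoxic genes, which belong to the 5 genes Gzma, Gzmb, Prf1, Nkg7 and Ncr1 and include 2 windows of Ncr1, in 5 of 14 windows of T cell genes and in 0 of 4 windows of B cell genes. In Gzmb its matches begin 93 and 34 bases before the start, and in Prf1 the match begins 130 bases before it. The T-box half-site, the element of TBX21 and EOMES, lay in 8 of 27 windows (29.6%), against 14.5% of all promoters, and its match in Gzmb begins 15 bases before the start. The ETS core lay in 11 windows (40.7%), against 23.8% of all promoters, and the octamer in 0 of 27, against 1.74%. These matches describe letters in short windows and were not tested.

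Total counts ran from 16981201 to 21673654 in mutant libraries and from 15111663 to 20454930 in control libraries, so that 3 counts, the limit that a count of 0 allows, came to 0.136 to 0.207 CPM (reads of a gene over those of its library, put on 1 scale for all libraries with TMM factors). That limit covers counting error only. Cdh1 itself stood at 406, 409.8, 401 and 396 CPM in mutants 1 to 4, against 322, 428, 388 and 395 CPM in controls 1 to 4, with a fold change, mutant over control, of 1.05 (95% interval 0.914 to 1.21, adjusted p = 0.648) in edgeR's quasi-likelihood test, so its level does not check the labels. The first principal component of all tested genes took 50.6% of the variance and separated controls 2 and 3, at 40.7 and 47, from the mutants, at -27 to -21, with controls 1 and 4 at 2.16 and 7.04. The second took 18.6% and set controls 1 and 4 apart, at -33.85 and -22.91. On it the mutants lay at 2.63 to 13.25 and controls 2 and 3 at 9.8 and 13.58. Lymphocyte genes were therefore read library by library, and with each pair of controls left out. Markers of the cells that were to be kept or depleted were all present. Epcam had 111, 106, 98.1 and 96 CPM in mutants 1 to 4, against 57.8, 73.7, 66.5 and 70.6 CPM in controls 1 to 4, and the pan-leukocyte gene Ptprc (CD45) had 99.4, 93.8, 114 and 93.2 CPM in mutants 1 to 4, against 204, 75.6, 64.1 and 101 CPM in controls 1 to 4. The endothelial gene Pecam1 had 848, 875, 887 and 759.6 CPM in mutants 1 to 4, against 1005, 1287, 1369.5 and 1030.2 CPM in controls 1 to 4, and the club cell gene Scgb1a1 had 4419, 4392, 3755 and 4143 CPM in mutants 1 to 4, against 14148, 12874, 13119 and 13469 CPM in controls 1 to 4. Some markers of other cells differed between groups as well. Of all 16964 genes tested, the same test called 5.45% higher and 2.36% lower in mutants, at an adjusted p under 0.05. Summed endothelial markers came to 5464 to 5907 CPM in mutants and 6551 to 7948 CPM in controls, with 5 of 15 called lower (Pecam1, Cdh5, Tek, Ramp2 and Ednrb) and 0 higher, and summed epithelial markers to 24098 to 28349 CPM in mutants and 32084 to 38437 CPM in controls, with 5 of 12 called higher (Epcam, Krt8, Krt18, Krt19 and Foxj1) and 1 lower (Scgb1a1). The epithelial sum includes Scgb1a1, at 3755 to 4419 CPM in mutants and 12874 to 14148 CPM in controls. It therefore does not measure epithelial cells as a whole. Myeloid markers summed to 6539.7 to 8837 CPM in mutants and 6184 to 8183 CPM in controls. Most of that sum was Lyz2, at 4841 to 7282 CPM in mutants and 5097 to 7156 CPM in controls. Of 24 myeloid markers tested, 4 were called higher (Cd68, Mrc1, Chil3 and Cd14) and 0 lower. Blood cell markers summed to 1716 to 2335 CPM in mutants and 1628 to 2771 CPM in controls, with 0 of 12 tested called higher and 3 lower, the platelet genes Ppbp, Gp9 and Tubb1 at folds of 0.535, 0.527 and 0.523. Of 11 mesenchymal markers 1 was called higher, Col3a1, and of 19 pan-leukocyte genes 1 lower, S1pr1. The fold of S1pr1 was 0.718, as was that of the endothelial gene Pecam1, and both were highest in controls 2 and 3. Which cells S1pr1 reports in these libraries was not tested. No tested marker of these lists was at 0 in any library. Their part in the lymphocyte results was not tested.

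None of the 38 lymphocyte genes passed the test between mutant and control libraries, in either direction. Across all 16964 genes the same edgeR test at an adjusted p under 0.05 called 7.81%, with 5.45% higher and 2.36% lower in mutants. At an unadjusted p under 0.05, 1 member was lower, Cxcr6, and 0 were higher, against 11.8% of all genes lower and 13.4% higher. The median log2 fold change was -0.05 over the members and -0.01 over all genes tested. Single folds ran from 0.69 for Gzmb to 1.28 for Pax5. For 31 of the 38 members the 95% interval lay within 2-fold in both directions, as it did for 13817 of all 16964 genes tested, a similar share. The T cell genes had a median log2 fold change of -0.05, with 7 folds above 1 and 11 below. NK and cytotoxic genes had -0.22, with all 7 below 1, and the 3 factors had -0.20, all below 1. B and plasma cell genes had 0.26, with 9 of 10 above 1, where 8322 of all 16964 genes tested had a fold above 1. The B cell count was 10 of 10 under library size scaling and 8 of 10 under RLE scaling and DESeq2. It was 7 of 10 without control 1 and without controls 2 and 3. Under library size scaling 9 of 18 T cell folds were above 1. The signs held under library size and RLE scaling for all NK genes and factors, while without control 1 the NK folds were above 1 for 3 of 7 and without controls 1 and 4 for 7 of 7. Of the 3 factors, 1 had a fold above 1 under limma-voom, with a replicate block, without control 1 and without control 4. Without controls 1 and 4, 2 of the 3 factors did. DESeq2 called 1 member, Cxcr6, lower and 0 higher, where it called 5.54% of all genes lower and 7.88% higher, and limma-voom called 0.

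**Figure D1:**
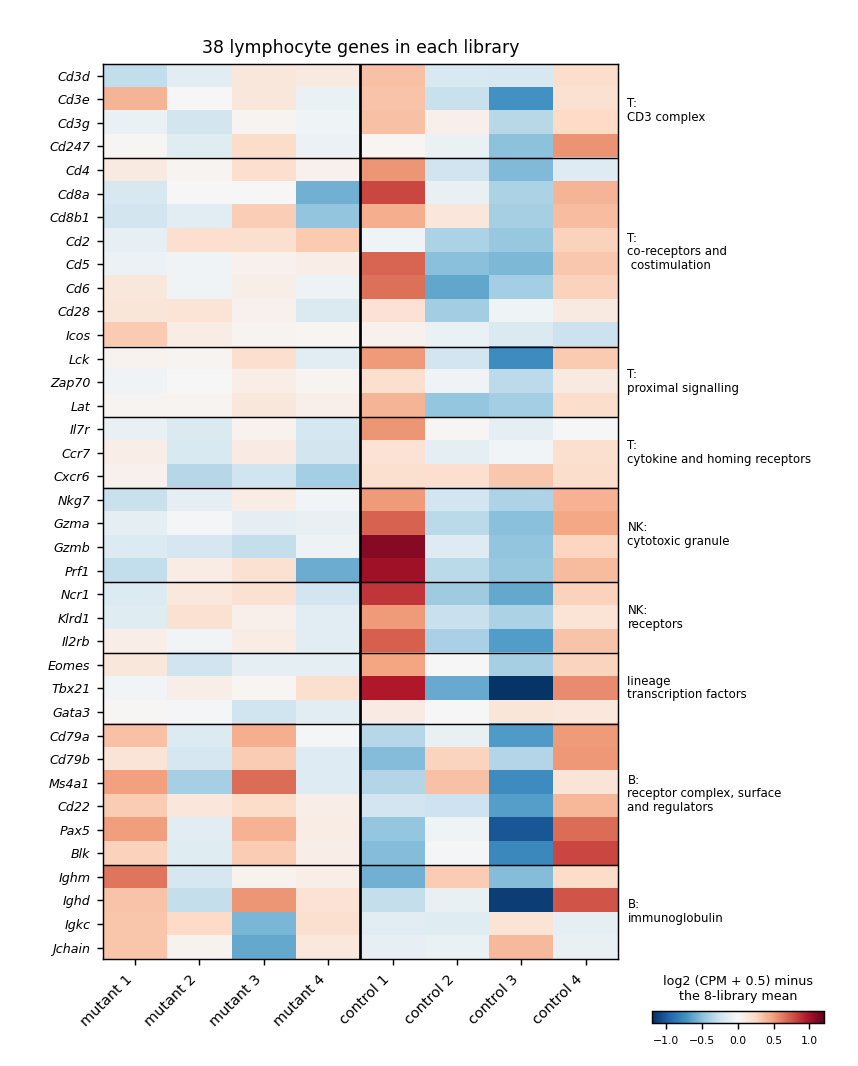
Level of each of the 38 lymphocyte genes in each library, as log2 (CPM + 0.5) minus the mean of the gene over the 8 libraries, with mutants 1 to 4 left of controls 1 to 4 and genes ordered by role. Most T and NK rows are red in controls 1 and 4 and blue in controls 2 and 3, with the mutants near white, while Igkc and Jchain are lowest in mutant 3.

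The CD3 chains, the signalling part of the T cell receptor, were present in every library. The 4 genes ranged over 3.67 to 7.84 CPM in mutants and 2.17 to 9.89 CPM in controls, far above the limit that a count of 0 allows. Cd3e had 5.35, 3.93, 4.37 and 3.67 CPM in mutants 1 to 4, against 5.11, 3.17, 2.17 and 4.51 CPM in controls 1 to 4. Mutant 1 was the highest library and control 3 the lowest, the groups overlapped, and the fold was 1.15 (95% interval 0.768 to 1.72, adjusted p = 0.666). Cd3d, Cd3g and Cd247 had folds of 0.922, 0.873 and 0.974, none of which passed. Of the exon bases of Cd247, 56.4% are also exon bases of Pou2f1 on the opposite strand, and fragments over both genes were not counted.

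Co-receptors and costimulatory receptors set how strongly a T cell responds. Cd4, the co-receptor of helper T cells, had 9.73, 9.16, 10.4 and 9.28 CPM in mutants 1 to 4, against 13.2, 7.51, 6.05 and 7.99 CPM in controls 1 to 4. Control 1 was the highest library and control 3 the lowest, with the mutants between them, and the fold was 1.11 (95% interval 0.791 to 1.54, adjusted p = 0.709). Cd8a and Cd8b1, the co-receptor chains of cytotoxic T cells, ranged over 3.44 to 6.22 CPM in mutants and 3.64 to 11.2 CPM in controls, with folds of 0.722 and 0.807. Cd2, an adhesion receptor of T and NK cells, had 11, 13.6, 13.5 and 14.7 CPM in mutants 1 to 4, against 11.3, 8.95, 8.46 and 14.4 CPM in controls 1 to 4. Mutants 2 to 4 and control 4 were the high libraries, the groups overlapped, and the fold was 1.22 (95% interval 0.93 to 1.6, adjusted p = 0.334). Cd5, a scavenger-type receptor that dampens receptor signalling, had 3.63, 3.71, 3.98 and 4.08 CPM in mutants 1 to 4, against 6.5, 2.55, 2.47 and 4.92 CPM in controls 1 to 4. Cd6, a neighbouring gene of the same receptor family, had 5.12, 4.47, 4.87 and 4.39 CPM in mutants 1 to 4, against 7.56, 2.82, 3.35 and 5.69 CPM in controls 1 to 4. For both, all 4 mutants lay within a narrow band above controls 2 and 3 and below controls 1 and 4, and the folds were 0.928 (95% interval 0.584 to 1.47, adjusted p = 0.852) for Cd5 and 0.961 (95% interval 0.62 to 1.49, adjusted p = 0.924) for Cd6. The costimulatory receptors Cd28 and Icos were low, at 0.498 to 1.61 CPM in mutants and 0.344 to 1.25 CPM in controls.

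Proximal signalling genes showed the same order of libraries. Lck, the kinase that phosphorylates the CD3 chains, had 15.5, 15.3, 17.4 and 13.7 CPM in mutants 1 to 4, against 21.6, 12.7, 8.7 and 18.8 CPM in controls 1 to 4. Control 1 was highest and control 3 lowest of the 8, and the 4 mutants averaged 15.5 ± 1.51 CPM against 15.5 ± 5.83 CPM in controls (SD, n = 4 each), a fold of 0.996 (95% interval 0.68 to 1.46, adjusted p = 0.991). Lat, the adaptor that gathers the signalling complex, had 12.1, 12, 13 and 12.3 CPM in mutants 1 to 4, against 15.8, 8.4, 8.76 and 13.7 CPM in controls 1 to 4. Its mutants spanned less than 1 CPM between the high and the low pair of controls, and the fold was 1.06 (95% interval 0.779 to 1.43, adjusted p = 0.833). Zap70, the kinase bound to phosphorylated CD3 chains, ranged over 7.89 to 8.63 CPM in mutants and 6.41 to 9.35 CPM in controls, with a fold of 1.01.

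Cxcr6 differed from the other T cell genes. It encodes the receptor for CXCL16 and is carried by tissue-resident T cells and by innate lymphoid cells. At chr9:123806475-123811760 on the plus strand (GRCm38), it had 5.41, 3.98, 4.31 and 3.8 CPM in mutants 1 to 4, against 6.02, 6.06, 6.64 and 6.1 CPM in controls 1 to 4. All 4 mutants lay below all 4 controls, which no other member showed; across all genes tested, groups did not overlap in 16.8%, with 9.75% higher and 7.07% lower in mutants. The fold was 0.705 (95% interval 0.561 to 0.885, adjusted p = 0.0678) and the log2 fold change -0.51 ± 0.15 (SE), on 73 to 125 counts per library. It missed the threshold in edgeR, while DESeq2 gave a log2 fold change of -0.52 with an adjusted p of 0.0229. Across the DESeq2, limma-voom, scaling, filter, block and left-out-library fits its log2 fold change stayed negative, from -0.62 to -0.44, with adjusted p from 0.0229 to 0.208. Ccr7, the receptor that guides T cells and dendritic cells to lymph nodes, had 11.8, 9.76, 11.9 and 9.51 CPM in mutants 1 to 4, against 12.6, 10.2, 10.9 and 12.8 CPM in controls 1 to 4. These groups overlapped, and the fold was 0.922 (95% interval 0.759 to 1.12, adjusted p = 0.597). Il7r, the receptor for the survival cytokine IL-7, ranged over 13.1 to 15.7 CPM in mutants and 14 to 22.3 CPM in controls, with a fold of 0.843.

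NK and cytotoxic genes had a median ratio of the highest to the lowest library of 1.29 among mutants and 2.69 among controls. Gzma, a granule protease and the most abundant NK member per length at 17.8 RPKM, the CPM divided by gene length, in mutants and 21.4 RPKM in controls, had 17.6, 18.8, 17.6 and 17.8 CPM in mutants 1 to 4, against 31.4, 15.2, 13.3 and 26.4 CPM in controls 1 to 4. The mutants lay within 1.07-fold of each other, while controls 1 and 4 lay well above them and controls 2 and 3 below, and the fold was 0.83 (95% interval 0.563 to 1.22, adjusted p = 0.525). Gzmb, the granzyme that cleaves caspases, had 4.78, 4.63, 4.37 and 5.16 CPM in mutants 1 to 4, against 12.1, 4.82, 3.76 and 6.56 CPM in controls 1 to 4. Control 1 stood far above the other 7 libraries, and the fold was 0.69 (95% interval 0.419 to 1.14, adjusted p = 0.33). Nkg7, a granule membrane protein, had 7.37, 8.23, 9.58 and 8.74 CPM in mutants 1 to 4, against 13, 7.58, 6.82 and 12.1 CPM in controls 1 to 4. Il2rb, the receptor chain for IL-2 and IL-15, had 19.3, 17.8, 19.5 and 16.5 CPM in mutants 1 to 4, against 30.4, 13.8, 11.3 and 23.2 CPM in controls 1 to 4. Both had controls 1 and 4 highest and control 3 lowest, with folds of 0.857 (95% interval 0.616 to 1.19, adjusted p = 0.544) for Nkg7 and 0.925 (95% interval 0.605 to 1.41, adjusted p = 0.828) for Il2rb. Prf1, which encodes perforin, ranged over 4.3 to 7.73 CPM in mutants and 4.82 to 14.3 CPM in controls, with a fold of 0.734. The receptors Ncr1 and Klrd1 had folds of 0.87 and 0.954.

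Among the lineage factors, Tbx21 had the widest spread of all members. It encodes T-bet, which drives interferon-producing T cells and NK maturation, and had 2.3, 2.51, 2.41 and 2.76 CPM in mutants 1 to 4, against 5.06, 1.38, 0.764 and 3.74 CPM in controls 1 to 4. The 4 mutants lay within 1.2-fold of each other, whereas control 1 was 6.62 times control 3, and the fold between groups was 0.898 (95% interval 0.427 to 1.89, adjusted p = 0.868). Eomes, the related factor of NK and memory cytotoxic cells, had 1.5, 1.04, 1.18 and 1.18 CPM in mutants 1 to 4, against 2.02, 1.31, 0.882 and 1.69 CPM in controls 1 to 4, and a fold of 0.819 (95% interval 0.537 to 1.25, adjusted p = 0.54). Gata3, a factor of helper T cells and type 2 innate lymphoid cells, had 7.37, 7.14, 6.11 and 6.57 CPM in mutants 1 to 4, against 7.85, 7.3, 8.11 and 7.99 CPM in controls 1 to 4. Mutant 1 overlapped the lowest control while the other mutants lay below all controls, and the fold was 0.869 (95% interval 0.728 to 1.04, adjusted p = 0.299).

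**Figure D2:**
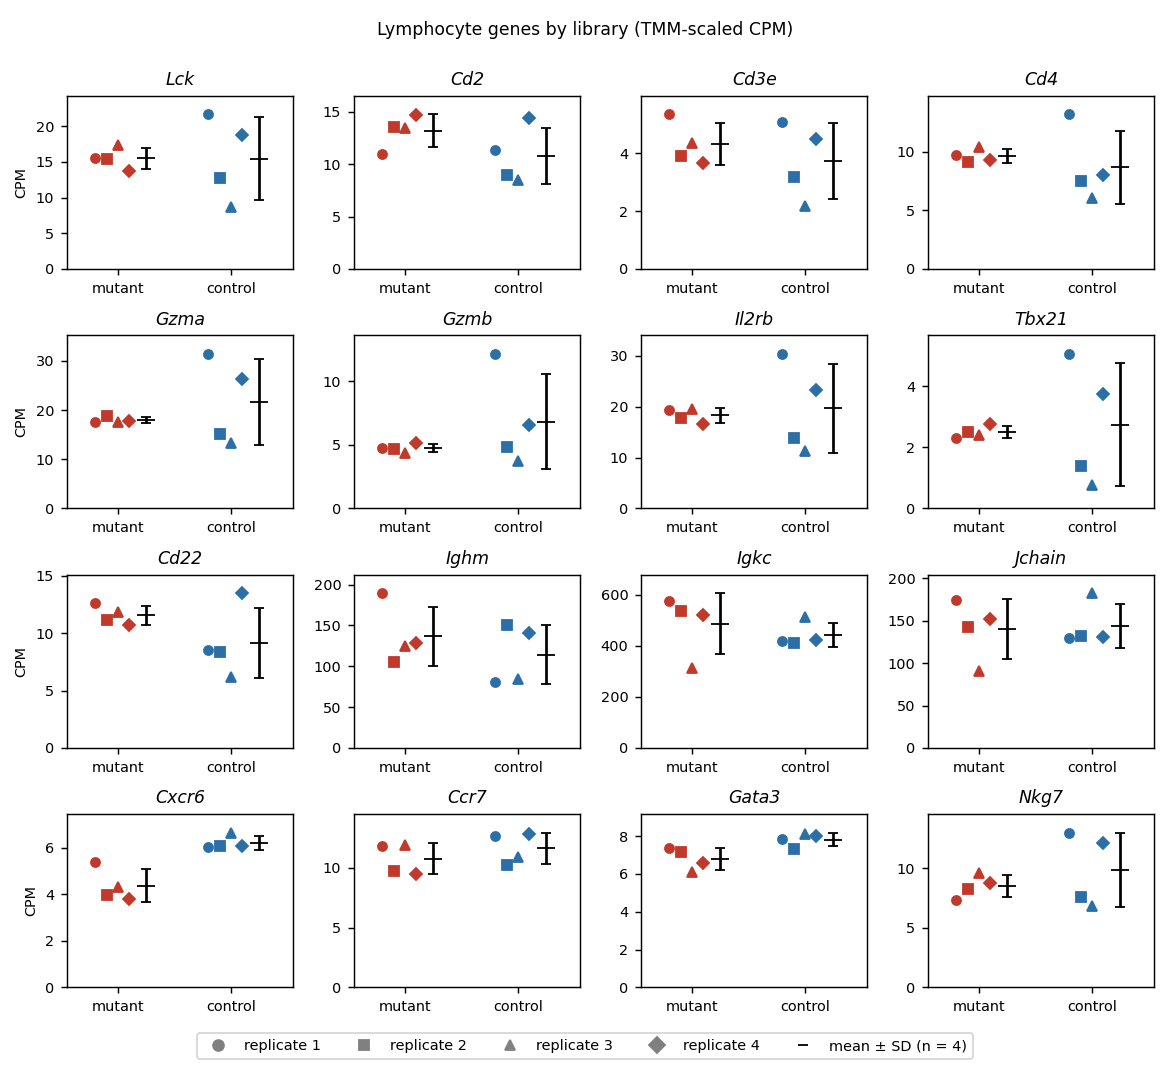
CPM of single lymphocyte genes in each library, with mutants 1 to 4 left of controls 1 to 4 and a black mark for the mean ± SD of each group (n = 4). In most T and NK panels the mutant points cluster between a high pair of controls (1 and 4) and a low pair (2 and 3), while the Cxcr6 panel shows all mutants, at 3.80 to 5.41 CPM, below all controls, at 6.02 to 6.64 CPM.

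B cell receptor genes followed a second order of libraries. The 6 genes Cd79a and Cd79b (receptor chains), Ms4a1 (the surface protein CD20), Cd22 (an inhibitory receptor), Pax5 (the factor of B cell identity) and Blk (a receptor-linked kinase) ranged over 4.25 to 21.1 CPM in mutants and 2.06 to 24 CPM in controls, with folds of 1.0 to 1.28. Cd22 had 12.6, 11.1, 11.8 and 10.7 CPM in mutants 1 to 4, against 8.53, 8.4, 6.17 and 13.5 CPM in controls 1 to 4. The mutants lay together above controls 1 to 3 and below control 4, and the fold was 1.26 (95% interval 0.913 to 1.74, adjusted p = 0.344). Ighm, the heavy chain constant region of IgM, had 189, 106, 125 and 128 CPM in mutants 1 to 4, against 81.2, 149.9, 84.6 and 141 CPM in controls 1 to 4. Mutant 1 was highest, controls 1 and 3 were lowest, and the fold was 1.2 (95% interval 0.822 to 1.75, adjusted p = 0.532). Ighd, the heavy chain of IgD on naive B cells, ranged over 12.5 to 22.3 CPM in mutants and 6.7 to 26.1 CPM in controls. Over the 8 B cell genes other than Igkc and Jchain, control 4 was the highest of the 8 libraries for 6 and control 3 the lowest for 6.

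Igkc and Jchain, which plasma cells express in quantity, followed an order of their own, and Igkc was the most abundant member. Igkc, the kappa light chain constant region at chr6:70726435-70726966 (plus strand, GRCm38), averaged 913 RPKM in mutants and 829.4 RPKM in controls and had 574, 537, 311 and 521 CPM in mutants 1 to 4, against 419, 412, 512 and 422 CPM in controls 1 to 4. Jchain, at chr5:88519809-88527891 (minus strand), had 174, 143, 90.4 and 152 CPM in mutants 1 to 4, against 129, 131, 182 and 131 CPM in controls 1 to 4. For both, mutant 3 was the lowest of the 8 libraries and control 3 the highest control, the reverse of the place of control 3 for T, NK and B cell receptor genes. The folds were 1.1 (95% interval 0.839 to 1.45, adjusted p = 0.653) for Igkc and 0.976 (95% interval 0.722 to 1.32, adjusted p = 0.93) for Jchain. Of the 8 other immunoglobulin constant region genes tested, mutant 3 was lowest for 3 (Igha, Ighg2b and Ighg2c) and control 3 the highest control for 1 (Igha, the IgA heavy chain). The highest control was control 2 for all 4 IgG genes and control 4 for the 3 lambda genes. Igha had 956, 958, 526 and 846 CPM in mutants 1 to 4, against 716, 662, 1002 and 773 CPM in controls 1 to 4; it was chosen after its values were seen. Variable segments are counted as separate genes and differ between B cell clones, and mutant 3 was the lowest library for heavy and kappa segments but not for lambda segments. The 185 heavy chain variable segments summed to 206, 189, 120.1 and 196 CPM in mutants 1 to 4 and 162, 195, 228 and 176 CPM in controls 1 to 4, and 82 to 98 of them had a count in each library, the top segment taking 4.68% to 6.81%. Kappa variable segments summed to 304, 260.4, 169 and 279 CPM in mutants and 226, 262, 302 and 237 CPM in controls. The 3 lambda variable segments summed to 28.5, 19.2, 15.2 and 26.1 CPM in mutants and 13.2, 14.8, 16.3 and 31.5 CPM in controls, lowest in control 1. T cell receptor beta variable segments summed to 4.66, 4.63, 4.48 and 4.12 CPM in mutants and 6.89, 3.72, 3.23 and 5.74 CPM in controls, with controls 1 and 4 highest. Reads that fit several variable segments were not counted, so these sums miss part of the transcripts.

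**Figure D3:**
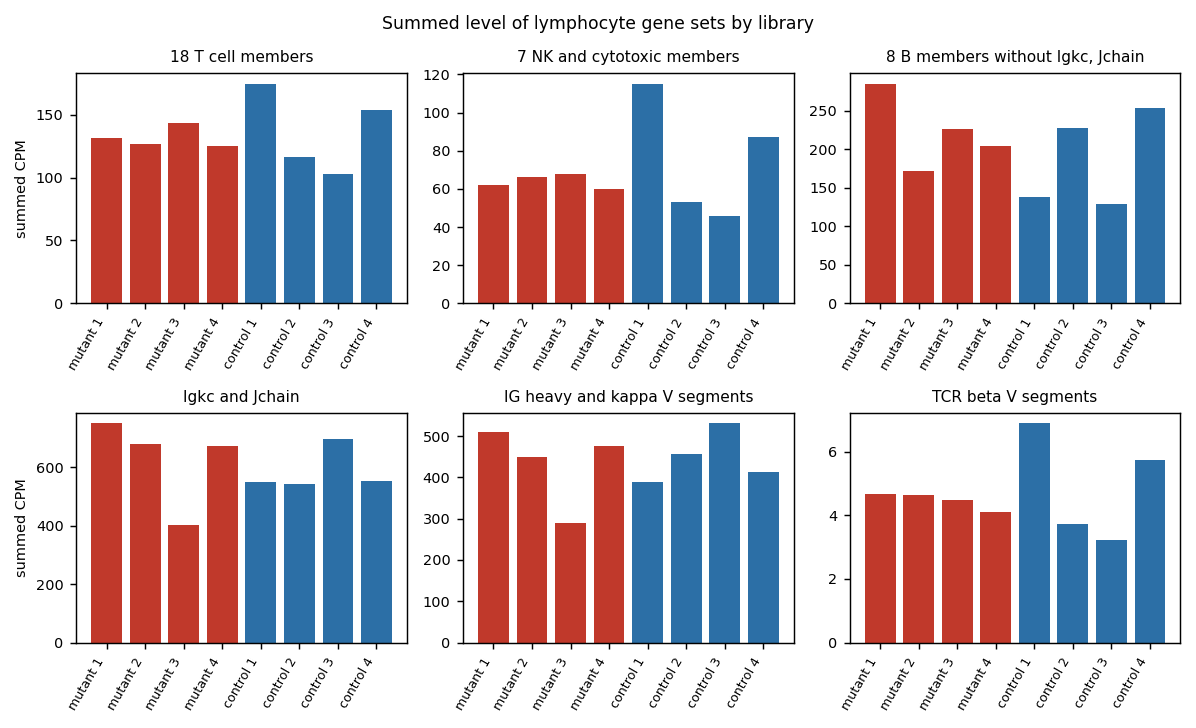
Summed CPM of the 18 T cell genes, the 7 NK genes, the 8 B cell genes other than Igkc and Jchain, Igkc with Jchain, and the variable segments of immunoglobulin and T cell receptor beta genes, in mutants 1 to 4 left of controls 1 to 4. The T and NK sums are highest in control 1, at 174 and 115 CPM, and lowest in control 3, at 102 and 45.8 CPM, while Igkc with Jchain is lowest in mutant 3, at 402 CPM.

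Summed by lineage, the T cell genes came to 131, 127, 143 and 125 CPM in mutants 1 to 4 and 174, 117, 102 and 154 CPM in controls 1 to 4. The NK genes summed to 61.8, 66.2, 67.8 and 60 CPM in mutants and 115, 53.1, 45.8 and 87 CPM in controls. In both, the mutants lay within a narrow range inside that of the controls. The 8 B cell genes summed to 284, 172, 226 and 204 CPM in mutants and 139, 227, 129 and 253 CPM in controls, and Igkc with Jchain to 749, 679.6, 402 and 673 CPM in mutants and 548, 543, 694 and 553 CPM in controls.

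The members varied more among controls than among mutants. For the 37 members with a control mean of at least 1 CPM, which leaves out Cd28, the highest mutant was a median of 1.32 times the lowest mutant, and the highest control 2.18 times the lowest control. Over the 15425 tested genes with such a mean the medians were 1.2 in mutants and 1.36 in controls. More than 2-fold separated the extremes in 1 of 37 members (2.7%, Ms4a1) in mutants and in 21 (56.8%) in controls, against 4.36% of all genes in mutants and 14% in controls. The spread was wider in controls for 89.2% of these members and 75.4% of all such genes. The members whose spread was wider in mutants were Igkc, Jchain, Cxcr6 and Gata3. Low counts alone widen a ratio, so the comparison was repeated in 7107 genes with control means of 1.07 to 21.6 CPM, the range of the 34 members other than Ighm, Igkc, Jchain and Cd28. There the medians were 1.34 in mutants and 1.53 in controls for all genes, against 1.3 in mutants and 2.23 in controls for the members.

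**Figure D4:**
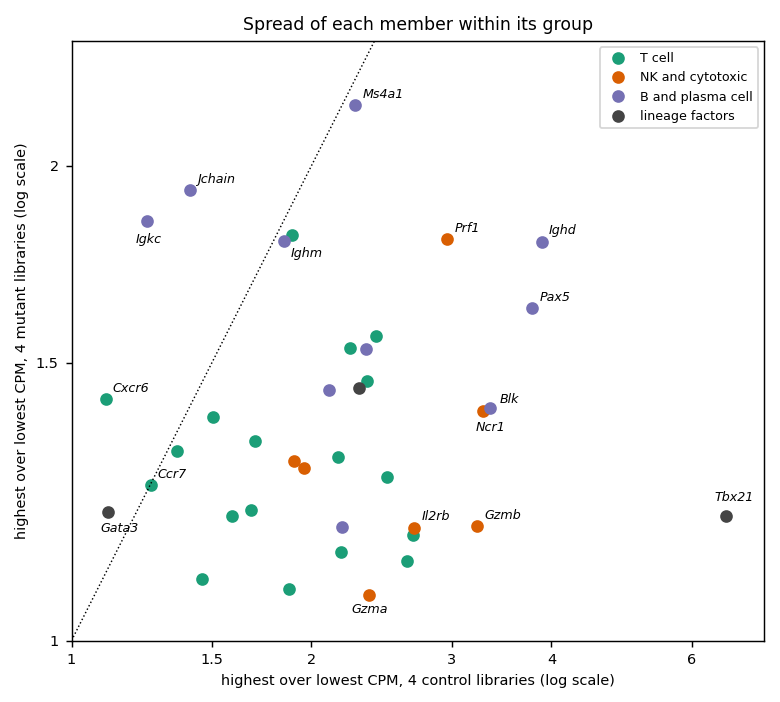
Ratio of the highest to the lowest CPM among the 4 mutants (vertical axis, log scale) against the same ratio among the 4 controls (horizontal axis, log scale), 1 point per member, all 38 shown, with a dotted line where the 2 are equal. Most points lie right of the line, Tbx21 farthest at 6.62 in controls and 1.2 in mutants, and Igkc, Jchain, Cxcr6 and Gata3 lie left of it.

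Controls shared an order across lymphocyte genes. Controls 1 and 4 both exceeded controls 2 and 3 in 25 of 38 members (65.8%), against 29.5% of all genes tested. The reverse, with controls 2 and 3 both above controls 1 and 4, held in 1 of 38 members. It held in 5400 of all 16964 genes tested, so a split between these pairs was common in both directions. Of the T cell genes 15 of 18 had controls 1 and 4 above, of the NK genes 7 of 7, of the factors 2 of 3 and of the B cell genes 1 of 10. All 4 mutants lay inside the range of the controls in 23 of 38 members (60.5%), against 27% of all genes tested. Control 1 was the highest of all 8 libraries for 12 of 18 T cell genes and 7 of 7 NK genes, and control 3 the lowest for 8 of 18 and 6 of 7. Controls 1 and 4 also exceeded controls 2 and 3 in 17 of 19 pan-leukocyte genes, which other leukocytes share. These 19 genes summed to 1307 to 1448 CPM in mutants and 1292 to 2014 CPM in controls. A large part of these sums was S1pr1, which followed the reverse order. It had 367 to 399 CPM in mutants and 464, 549, 629 and 480 CPM in controls 1 to 4, so the sums do not show the order of the other genes. Whether S1pr1 reports leukocytes in these libraries was not tested. Controls 1 and 4 exceeded controls 2 and 3 in 11 of 24 myeloid, 3 of 15 endothelial, 3 of 12 epithelial and 4 of 11 mesenchymal genes. The part of other leukocytes in the order of the members was not tested. The 8 libraries carry no batch label. Each label description ends in a number whose meaning is not given. Controls 2 and 3 have the lowest of these numbers, and those of control 1 and mutant 4 follow each other, as do those of mutants 1 and 2. Between controls, the chi-square per gene was 4.88 for controls 2 and 3 and 19.98 for controls 1 and 4. For the other pairs of controls it was 36.43 to 45.58. What lies behind this split was not tested.

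The calls depended on which controls were used, and with a pair left out only 2 controls remained. Without controls 2 and 3, 3 members were called lower in mutants and 0 higher, where 1.26% of all genes were called lower and 3.56% higher. They were Gzma, at a log2 fold change of -0.69 (edgeR adjusted p = 0.00529), Gzmb at -0.98 (adjusted p = 0.0469) and Il2rb at -0.55 (adjusted p = 0.0401). Without controls 1 and 4, 11 members were called higher, where 21.5% of all genes were called higher and 19.2% lower. They were Cd2, Cd3e, Cd4, Cd5, Cd6, Lck, Lat, Cd22, Gzma, Il2rb and Tbx21, at log2 fold changes of 0.33 for Gzma to 1.24 for Tbx21, and Cxcr6 was called lower at -0.55. Gzma and Il2rb were thus called in opposite directions with the 2 pairs of controls. The pairs were taken from these same data, and the mutants of both genes lay between them. Opposite signs were therefore fixed beforehand and are no further result about these genes. Without controls 1 and 4, 40.7% of all genes were called in either direction. The median log2 fold change of the members was -0.28 without controls 2 and 3 and 0.34 without controls 1 and 4, while that of all genes was -0.001 and 0.01. Leaving out control 4 alone called Cd22 higher, at a log2 fold change of 0.58 with an adjusted p of 0.0367, where 7.05% of all genes were called higher. Leaving out any other single library called 0 members.

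**Figure D5:**
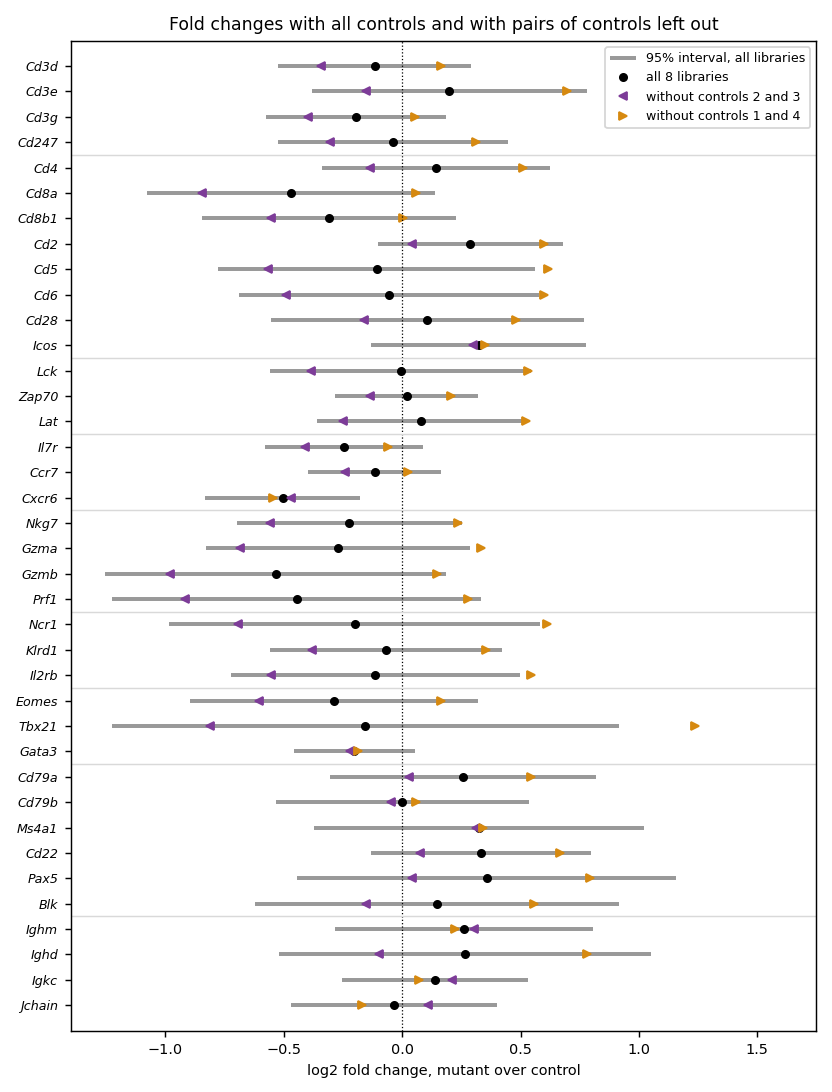
Log2 fold change, mutant over control, of each member with all 8 libraries (black point, with its 95% interval as a grey bar), without controls 2 and 3 (purple) and without controls 1 and 4 (orange). Purple points lie left of orange ones for most T, NK and B cell receptor genes, widest apart for Tbx21 at -0.81 (purple) and 1.24 (orange), while Cxcr6, Gata3, Icos and Ms4a1 hardly move.

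Few other genes of the same lineages were called. Lists of 38 further T cell genes, 38 further B and plasma cell genes and 37 further NK and innate lymphoid genes hold 112 different genes, of which 103 were tested. One was called higher, Sdc1, and 0 lower, against 5.45% and 2.36% of all genes, and 5 higher and 4 lower had an unadjusted p under 0.05, where 13.4% and 11.8% of all genes did. Sdc1, which encodes syndecan-1 and marks plasma cells but is also an epithelial gene, had 409, 425, 400.1 and 418 CPM in mutants 1 to 4, against 274, 349.6, 329 and 321 CPM in controls 1 to 4, a fold of 1.3 (95% interval 1.14 to 1.48, adjusted p = 0.0268). That call was lost when any 1 mutant or control 3 was left out, at adjusted p of 0.0511 to 0.0807, while the log2 fold change stayed at 0.36 to 0.39 in those fits. Folds were above 1 for 16 of 36 further T cell genes, 25 of 36 B cell genes and 11 of 32 NK genes tested. Their median log2 fold changes were -0.08, 0.22 and -0.03, against -0.05, 0.26 and -0.22 for the T, B and NK members. The further NK genes thus did not share the uniform sign of the 7 NK members. The order with controls 1 and 4 above controls 2 and 3 held for 26 of 36 T cell genes (72.2%), 17 of 32 NK genes (53.1%) and 13 of 36 B cell genes (36.1%) tested. It held for 29.5% of all genes tested, so the share of the B cell genes was near that of all genes. The further T cell genes with the lowest p were Tcrg-C1, a gamma chain constant region, with a fold of 0.599 (95% interval 0.416 to 0.862, adjusted p = 0.0874), Pdcd1, the inhibitory receptor PD-1, with 1.71 (95% interval 1.14 to 2.55, adjusted p = 0.101), the kinase Prkcq with 0.816 (95% interval 0.687 to 0.97, adjusted p = 0.137) and the costimulatory receptor Tnfrsf4 with 1.26 (95% interval 1.01 to 1.57, adjusted p = 0.172). Of the B cell genes these were, after Sdc1, Fcer2a, the low-affinity IgE receptor CD23, with a fold of 2.34 (95% interval 1.24 to 4.41, adjusted p = 0.10), the plasma cell factor Prdm1 with 0.767 (95% interval 0.606 to 0.971, adjusted p = 0.152) and the BAFF receptor Tnfrsf13c with 1.51 (95% interval 0.998 to 2.29, adjusted p = 0.20). For NK genes they were Sh2d1b1, a signalling adaptor, with 1.32 (95% interval 1.01 to 1.74, adjusted p = 0.189), the receptor Klrb1b with 0.734 (95% interval 0.527 to 1.02, adjusted p = 0.227), the nuclear receptor Rora with 0.803 (95% interval 0.622 to 1.04, adjusted p = 0.26) and the egress receptor S1pr5 with 0.545 (95% interval 0.246 to 1.2, adjusted p = 0.313). S1pr5 had 8.14, 1.38, 1.7 and 2.92 CPM in controls 1 to 4, so control 1 stood far above the other controls. Across the alternative fits its log2 fold change ran from -1.5 to 0.33. Rora and Prdm1 had controls 2 and 3 above controls 1 and 4, the reverse of most T and NK members. In controls 1 to 4, Rora had 59.7, 75.6, 93.6 and 52 CPM, and Prdm1 had 12.7, 15.4, 18.3 and 12 CPM. Whether these 2 genes report lymphocytes in these libraries was not tested.

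Fcer2a had 13.1, 8.23, 10.6 and 9.01 CPM in mutants 1 to 4, against 4.38, 3.44, 1.41 and 8.1 CPM in controls 1 to 4. All 4 mutants exceeded all 4 controls, DESeq2 called it higher (adjusted p = 0.0234), and edgeR did so without control 4 (adjusted p = 0.0161) but not with all libraries. Among 15 tested genes of lymphoid homing and lymph node stroma, 1 was called higher, Cxcl13, the chemokine that draws B cells into follicles, and 0 lower, against 5.45% and 2.36% of all genes. It had 10.9, 7.69, 7.62 and 8.24 CPM in mutants 1 to 4, against 4.62, 4.96, 3.12 and 2.61 CPM in controls 1 to 4, so that every mutant exceeded every control, and a fold of 2.26 (95% interval 1.59 to 3.2, adjusted p = 0.0125) in edgeR's test.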

How the data were processed

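The deposited table holds raw counts per gene for 8 libraries, made by the authors with featureCounts 1.6.2 against GENCODE M25 on GRCm38, per the file headers. Read pairs were counted without strand, and reads over several genes or places were left out, per the file headers. STAR, Bowtie2 and Cufflinks appear in the submitters' processing notes without versions or roles. A stranded kit and one that does not mark strand are named in the labels. Symbols came from GENCODE M21, which matched 99.53% of rows.

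Low genes were removed by filterByExpr (at least 10 counts, at least 15 in total) and the rest were scaled with TMM and tested with edgeR 4.0.16 (quasi-likelihood, robust, group as the only term, 4 libraries a group) in R 4.3.3, with Benjamini-Hochberg adjustment over all 16964 genes and a threshold of 0.05. SEs were derived from the test statistic. CPM uses TMM-scaled totals, and RPKM the deposited gene lengths. Intervals are 95%. The test was checked on simulated counts. Alternatives were DESeq2 1.42.0, limma-voom 3.58.1, other scalings and filters, a replicate block and libraries left out. Between libraries of the same group, the chi-square per gene was 4.88 to 45.58, so each was counted once.

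The members, lists and alternatives were chosen with earlier results of these data known. Genes given library by library were the 3 of each lineage with the highest mean RPKM, the factors, every member called in any alternative and any with controls spanning over 4-fold. Of other lymphocyte lists, called genes and the 4 with the lowest p were named. Igha was picked after its values were seen, and Epcam, Ptprc, Pecam1 and Scgb1a1 stand as markers of the kept and depleted cells.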

Additional observations from a re-analysis of the deposited data

Results flagged for a closer look

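Each of the 38 members was searched for a library far from the other 3 of its group, which chance alone gives in about 1 of 20 groups. Of the 76 groups searched, 4 held such a library, close to the 3.8 that this share gives. Igkc stood apart at 311 CPM in mutant 3, where the other mutants had 521 to 574 CPM. Among controls, Igkc stood apart at 512 CPM in control 3, where the other controls had 412 to 422 CPM. Jchain stood apart in the same library, at 182 CPM in control 3 against 129 to 131 CPM in the other controls. Cxcr6 stood apart at 6.64 CPM in control 3, where the other controls had 6.02 to 6.10 CPM, and this library lies farther from the mutants than the others do.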

How the results depend on the processing

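Among 38 members, 0 were called higher and 0 lower under library size and RLE scaling, limma-voom, both filters and the replicate block. DESeq2 called 1 lower. With single libraries left out, 0 to 1 were called higher and 0 lower. Without controls 2 and 3, 0 were higher and 3 lower, and without controls 1 and 4, 11 higher and 1 lower, where Cd5 reached 0.62, Cd6 0.60, Lck 0.53, Gzma 0.33, Il2rb 0.54 and Tbx21 1.24 on the log2 scale, against a negative value with all libraries. The cause was not tested. Of the other lymphocyte genes, DESeq2 called 2 higher, single libraries left out gave 0 to 3 higher and 0 to 1 lower, controls 2 and 3 left out gave 2 lower, controls 1 and 4 left out gave 27 higher and 4 lower, and control 1 with mutant 4 left out gave 2 higher. Over all genes, 924 were higher and 401 lower. DESeq2 called 939 lower, single libraries left out gave 515 to 1517 higher and 146 to 1117 lower, controls 2 and 3 left out gave 223 lower, controls 1 and 4 left out gave 3750 higher and 3338 lower, and control 1 with mutant 4 left out gave 625 lower. The median control spread of the members ran from 1.71 to 2.29. Deviations of same-numbered libraries correlated at 0.0183, 0.154, -0.131 and 0.157 across genes. Those of differently numbered libraries correlated at -0.169 to 0.157. These values cannot tell whether same-numbered libraries share more than a number. With the replicate block, 865 genes were called higher and 371 lower, 0 members were called, and 4 members changed sign. At these depths 3 counts come to 0.136 to 0.207 CPM, which every member exceeded in every library, Cd28 least, at 0.344 CPM in control 2.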
